A study of Homo sapiens with 20 samples.

Results

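Of the 60271 genes in the deposited count table, 10 were selected by name as matricellular proteins, collagen-modifying and crosslinking enzymes, and collagen IV chains (FN1, TNC, THBS1, TGFBI, SPARC, LOX, LOXL2, PLOD2, COL4A1 and COL4A2), with no threshold on their values. All 10 were among the 16522 genes that passed the filter on low counts. Their mRNA was measured in MDA-MB-468, an established epithelial line of triple negative breast cancer, in which epidermal growth factor (EGF) is used to induce epithelial-mesenchymal transition (EMT). After 24 h of culture and 24 h of serum starvation, cells received EGF at 50 ng/mL for 12, 24, 48 or 72 h, or none (CTR). By the deposited treatment protocol, all groups shared the seeding and the harvest, and the time of EGF addition was the difference between them. In that case the time without serum before EGF could not be 24 h in every group, and may differ with the time of EGF. The sources used here do not resolve this. Each of the 5 groups had 4 biological replicates, giving 20 libraries. All came from 1 cell line, and whether replicates were separate cultures is not stated, so p-values measure the spread between these samples, which may be technical.

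Matricellular proteins are secreted proteins that modulate how cells bind to and read the extracellular matrix. Fibronectin (FN1) is assembled into fibrils and bound by integrins, and its rise is a customary marker of EMT. Collagen IV is the network-forming collagen of basement membranes, and lysyl oxidases and lysyl hydroxylases make and stabilize the covalent crosslinks between collagen chains.

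Libraries held 15611961 to 25856953 estimated counts, and the mean share of mitochondrial genes was lowest at 12 h (9.43%) and highest at 72 h (15%). Levels are given as CPM (counts relative to the library total, after TMM scaling), ± SD with n = 4. Those of the cell type markers in this paragraph are CPM of the library total without TMM scaling. Differences are log2 fold changes ± SE from the quasi-likelihood test in edgeR, and p-values were adjusted by Benjamini-Hochberg over the 16522 genes, with a threshold of 0.05. Of the markers that define epithelial cells, EPCAM had at least 2282 counts and CDH1 at least 1444 counts in every library. The summed level of the 6 epithelial markers was 5110 to 5670 CPM in CTR, 15900 to 17200 CPM at 12 h and 7890 to 8680 CPM at 72 h. Mean levels at 72 h were below those in CTR for EPCAM (146 against 194 CPM) and CDH1 (92 against 136 CPM), and above them for KRT8 (243 against 157 CPM), KRT18 (1460 against 843 CPM), KRT19 (426 against 407 CPM) and EGFR (5960 against 3720 CPM). Of the 7 fibroblast markers only COL1A1 exceeded 14 counts in any library, while COL1A2, COL3A1 and LUM never exceeded 1 count. Their summed level was 5.89 to 8.62 CPM in CTR and 7.97 to 15.7 CPM after EGF. Among endothelial markers, CDH5 never exceeded 3 counts and VWF never exceeded 9 counts, but KDR was detected in every library at 12 to 37 counts and PECAM1 at 4 to 114 counts (0.191 to 5.55 CPM). The summed level of the 4 genes was 2.57 to 4.4 CPM in CTR and 1.28 to 6.53 CPM after EGF. Among leukocyte markers, CD68 had a mean level of 1.23 CPM in CTR and 27.1 CPM at 72 h, while CD3E was at no more than 2 counts and PTPRC at no more than 8 counts in all 20 libraries. The part of these changes in the results was not tested. Bulk libraries do not tell apart a change in all cells from a change in the share of cells that express a gene.

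Against CTR, 6 of the 10 genes were higher and 1 was lower after 12 h of EGF. At 24, 48 and 72 h, 5 were higher and 1 was lower at each time. Among all genes tested, 32.9% were higher and 36.5% lower at 12 h, 29.2% and 29.6% at 24 h, 24% and 21.8% at 48 h, and 30.6% and 31% at 72 h. The median log2 fold change of the 10 genes lay between 0.52 and 0.58 at the 4 times, and that of all genes between -0.05 and 0.01. Genes that were higher at all times were FN1, TNC, TGFBI and LOX. THBS1 passed the test at all times but 48 h, LOXL2 rose at 12 and 48 h, COL4A2 fell at 12 and 24 h, and PLOD2 fell at 48 and 72 h. SPARC and COL4A1 did not pass the test against CTR at any time, at counts of 1 to 19 and 5 to 20 per library. When tested against a 1.5-fold change in place of no change, the calls of TGFBI at 12 and 24 h, of LOXL2 at 12 and 48 h, of PLOD2 at 48 and 72 h and of COL4A2 at 24 h were lost.

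**Figure D1:**
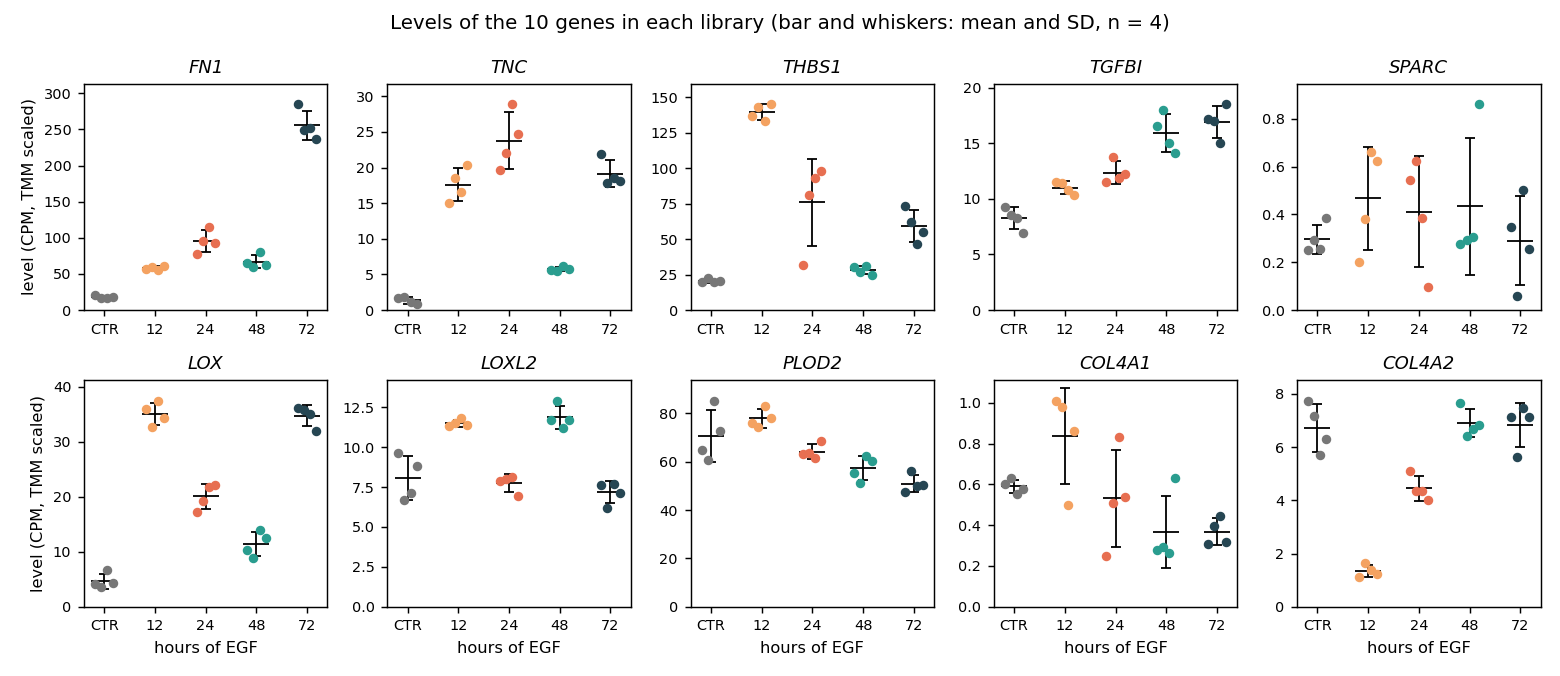
Level of each of the 10 genes in CPM (vertical axis, each panel with its own scale from 0) in the 4 libraries of CTR and of each time of EGF (in hours), with the mean and SD. FN1 was highest at 72 h (256 CPM), THBS1 at 12 h (140 CPM), and TNC, THBS1 and LOX were low at 48 h between higher levels at 24 and 72 h.

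**Figure D2:**
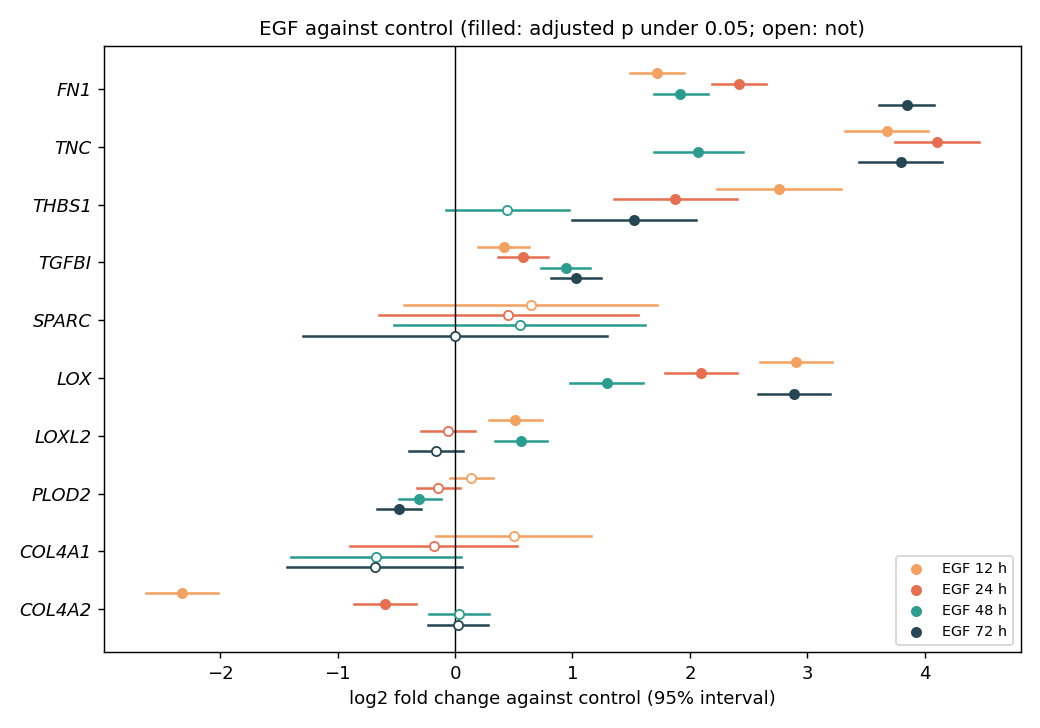
Log2 fold change against CTR with its 95% interval for each gene and time of EGF, filled where the adjusted p passed the threshold. TNC reached 4.10 at 24 h and COL4A2 was at -2.33 at 12 h, while the intervals of SPARC and COL4A1 spanned 0 at all times.

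FN1, TNC, THBS1 and LOX had the largest rises, and the 250 bases upstream of their RefSeq starts (GRCh38.p14, on the strand of each gene) are shown for this reason. FN1 lies on the minus strand of chromosome 2 (215360440 to 215436172 in GENCODE 29, GRCh38), TNC on the minus strand of chromosome 9 (115019578 to 115118257), THBS1 on the plus strand of chromosome 15 (39581079 to 39599466), and LOX on the minus strand of chromosome 5 (122063195 to 122078360). Capitals mark matches, on either strand, to the cAMP response element TGACGTCA, the CCAAT box CCAAT, the TEAD motif GGAATG and the hypoxia response core ACGTG.
FN1 (chr2:215436069-215436318): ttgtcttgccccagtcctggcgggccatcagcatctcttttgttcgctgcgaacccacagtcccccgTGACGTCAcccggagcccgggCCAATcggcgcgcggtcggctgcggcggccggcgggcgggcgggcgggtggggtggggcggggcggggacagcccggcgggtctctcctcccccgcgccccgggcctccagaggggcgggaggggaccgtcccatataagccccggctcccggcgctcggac
TNC (chr9:115118158-115118407): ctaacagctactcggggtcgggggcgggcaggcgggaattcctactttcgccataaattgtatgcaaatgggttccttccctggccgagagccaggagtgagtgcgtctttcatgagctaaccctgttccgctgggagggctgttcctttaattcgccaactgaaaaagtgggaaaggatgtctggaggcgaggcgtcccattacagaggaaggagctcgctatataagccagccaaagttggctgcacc
THBS1 (chr15:39580829-39581078): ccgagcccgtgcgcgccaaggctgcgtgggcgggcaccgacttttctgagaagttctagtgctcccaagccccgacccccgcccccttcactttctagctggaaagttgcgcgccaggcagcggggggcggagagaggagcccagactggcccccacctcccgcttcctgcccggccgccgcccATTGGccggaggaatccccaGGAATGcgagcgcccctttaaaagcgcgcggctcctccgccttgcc
LOX (chr5:122078260-122078509): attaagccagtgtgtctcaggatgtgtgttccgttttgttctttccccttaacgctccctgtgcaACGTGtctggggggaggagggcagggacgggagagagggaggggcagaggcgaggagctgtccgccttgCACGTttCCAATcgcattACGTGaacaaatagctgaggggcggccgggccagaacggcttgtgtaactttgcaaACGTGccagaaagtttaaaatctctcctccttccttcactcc

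Promoters of 9 of the 10 genes were searched, of the 35114 in the RefSeq table, over the same 250 bases and on both strands. TGACGTCA was found in FN1 alone, 183 to 176 bases before its start, and in 1.65% of all promoters. GGAATG was found in THBS1 and SPARC and in 11.9% of all promoters, and ACGTG in LOX (4 matches) and PLOD2 (2 matches) and in 18.5% of all promoters. CCAAT was found in 6 of the 9 promoters and in 32% of all, and the GC box GGGCGG in 8 of the 9 and in 42.6% of all. The windows of COL4A1 and COL4A2 overlap, and the CCAAT match and 1 GGGCGG match of each are the same site. FN1 held 6 matches to GGGCGG, some of which overlap each other. Neither the AP-1 motif TGANTCA (6.57% of all promoters) nor TATAAA (10.7%) was found in these 9 windows. Only exact letters were searched, and the FN1 and TNC windows hold TATAAG, which does not match TATAAA. The TNC window held no match to the motifs marked in capitals.

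FN1 encodes fibronectin, and its level was 14.4 times that of CTR after 72 h of EGF, its highest level. In CTR libraries it was at 21.0, 16.2, 16.6 and 17.4 CPM, and after 12 h at 57.1, 60.3, 55.9 and 60.9 CPM. After 24 h it was at 78.3, 95.5, 115 and 93.0 CPM, after 48 h at 65.6, 59.8, 80.3 and 63.0 CPM, and after 72 h at 285, 249, 252 and 237 CPM. Every EGF library lay above every CTR library, and every library of 72 h lay above those of all other groups. Log2 fold changes against CTR were 1.72 ± 0.11, 2.42 ± 0.11, 1.92 ± 0.11 and 3.85 ± 0.12 at the 4 times (largest adjusted p = 1.82e-12). The order of the levels was CTR, 12 h, 48 h, 24 h and 72 h, in which 12 and 48 h were the neighbors that did not pass the test (log2 difference 0.20 ± 0.10, adjusted p = 0.0887). This difference passed the test with scaling by library size only (0.50, adjusted p = 0.000206), with upper quartile factors (0.38, adjusted p = 0.00167) and with a filter of 10 counts in every library (0.27, adjusted p = 0.0217). FN1 rose by 0.70 ± 0.10 from 12 to 24 h (adjusted p = 5.14e-06, and 0.0648 with factors per gene from the authors' normalized values), fell by 0.50 ± 0.10 on the log2 scale from 24 to 48 h (adjusted p = 0.000284), with ranges that overlapped, and rose by 1.93 ± 0.10 from 48 to 72 h (adjusted p = 2.98e-12).

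TNC encodes tenascin-C, a hexameric matricellular glycoprotein that is scarce in most adult tissue and common in tumor stroma and wounds. It was at 1.76, 1.81, 1.07 and 0.865 CPM in CTR, which corresponds to 18 to 43 counts. It was at 15, 18.6, 16.6 and 20.3 CPM at 12 h and at 19.6, 22.0, 28.9 and 24.7 CPM at 24 h. At 48 h it was at 5.65, 5.48, 6.19 and 5.80 CPM, and at 72 h at 21.9, 17.9, 18.6 and 18.1 CPM. No EGF library overlapped with CTR, and the 48 h libraries formed a level of their own between CTR and the other times. Against CTR, the log2 fold changes were 3.68 ± 0.17, 4.10 ± 0.17, 2.07 ± 0.18 and 3.80 ± 0.17, or 12.8, 17.2, 4.2 and 13.9 times the CTR level (largest adjusted p = 2.12e-09). TNC fell by 2.04 ± 0.14 on the log2 scale from 24 to 48 h (adjusted p = 6.47e-11) and rose by 1.73 ± 0.14 from 48 to 72 h (adjusted p = 2.01e-09). The difference between 12 and 72 h did not pass the test (log2 difference 0.12 ± 0.13, adjusted p = 0.43), and 72 h did not pass the test against 24 h either (-0.31 ± 0.13, adjusted p = 0.0627). The former passed with scaling by library size only (0.33, adjusted p = 0.036) and the latter with only the 8 libraries compared (-0.30, adjusted p = 0.0221).

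THBS1 encodes thrombospondin-1, a trimeric glycoprotein that activates latent TGF-beta, inhibits angiogenesis and binds CD36 and CD47. Its level was highest at the earliest time. In CTR it was at 19.5, 22.5, 19.6 and 20.8 CPM, and at 12 h at 137, 143, 133 and 145 CPM, 6.76 times the CTR level (log2 fold change 2.76 ± 0.25, adjusted p = 3.1e-08). It was at 31.5, 80.8, 93.2 and 97.9 CPM at 24 h, at 30.1, 26.6, 30.7 and 25.0 CPM at 48 h, and at 73.5, 61.7, 46.4 and 55.3 CPM at 72 h. Replicate 1 of 24 h was far below the other 3 libraries of its group, and just above the libraries of 48 h. Log2 fold changes against CTR were 1.88 ± 0.25 at 24 h (adjusted p = 5.01e-06) and 1.52 ± 0.25 at 72 h (adjusted p = 4.35e-05). At 48 h the value was 0.45 ± 0.25 (adjusted p = 0.157), although all 4 libraries lay above all CTR libraries. In a model of only the 8 libraries of CTR and 48 h, which leaves out the 24 h group, it was 0.44 with an adjusted p of 0.0045. THBS1 fell from 12 to 24 h (-0.88 ± 0.23, adjusted p = 0.00423) and from 24 to 48 h (-1.43 ± 0.24, adjusted p = 0.000117) and rose from 48 to 72 h (1.08 ± 0.24, adjusted p = 0.00224). The first of these calls was lost with only the 8 libraries compared (-0.87, adjusted p = 0.0593), and the last with factors per gene from the authors' normalized values (0.74, adjusted p = 0.182).

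In the same library, replicate 1 of 24 h, CCN2 and ITGA2 were also low. They were picked for this comparison after their values were seen. CCN2, a matricellular protein of the CCN family, was at 5.64 CPM in it and at 14.1, 17.4 and 19.1 CPM in the others of 24 h, and ITGA2, the collagen-binding integrin alpha-2 chain, at 162 CPM against 281, 323 and 298 CPM. FN1, TNC, LOX and TGFBI also had their lowest 24 h level in this library, by a smaller margin. So did COL4A1, at 5 counts and 0.247 CPM against 0.509, 0.833 and 0.537 CPM, while COL4A2 had its highest 24 h level there, at 5.09 CPM. Over 10787 genes with a mean of at least 5 CPM, its mean correlation with the other libraries of 24 h was 0.991, and theirs were 0.992 to 0.993, and it had 30 genes more than 2-fold from the mean of the others, against 14 to 20. Such genes numbered 9 to 38 over all 20 libraries. Without it, the log2 fold change of THBS1 at 24 h against CTR was 2.14, and the difference between 72 and 24 h, which was -0.35 ± 0.23 with an adjusted p of 0.253 in all libraries, was -0.61 with an adjusted p of 0.00014.

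**Figure D3:**
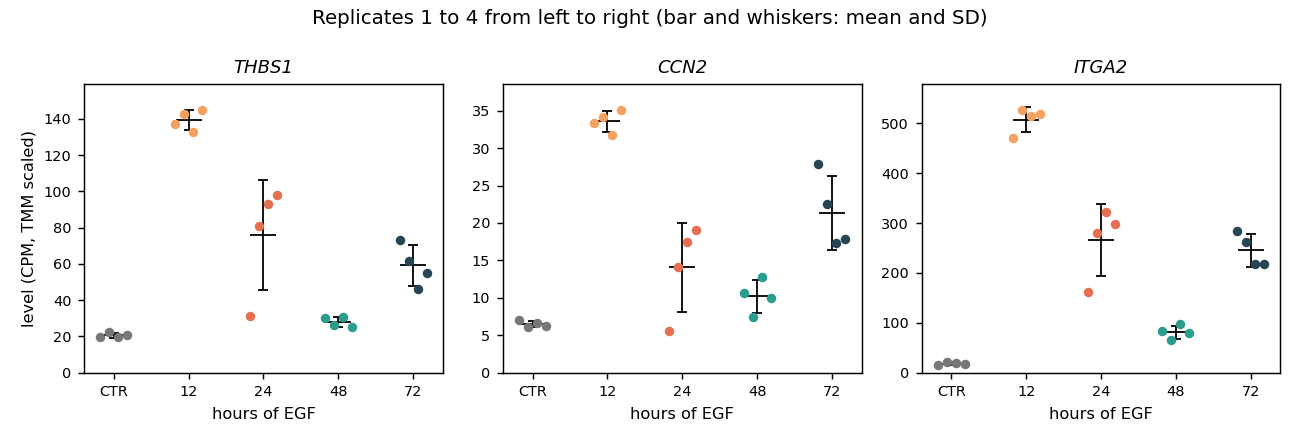
Levels of THBS1, CCN2 and ITGA2 in CPM in each library, with replicates 1 to 4 from left to right within a group and the mean and SD. Replicate 1 of 24 h was the lowest of its group for all 3 genes, at 31.5, 5.64 and 162 CPM.

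TGFBI encodes a secreted fasciclin-domain protein that binds collagens and integrins and is induced by TGF-beta. It was the gene of the group with an ordered rise: its mean level was 8.27 ± 0.97 CPM in CTR, 11 ± 0.55 CPM at 12 h, 12.3 ± 1.0 CPM at 24 h, 15.9 ± 1.7 CPM at 48 h and 16.9 ± 1.4 CPM at 72 h. No EGF group overlapped with CTR. The log2 fold changes were 0.41 ± 0.10, 0.58 ± 0.10, 0.94 ± 0.10 and 1.03 ± 0.10 (largest adjusted p = 0.00102). Neighbors in time differed beyond their spread from 24 to 48 h (0.37 ± 0.10, adjusted p = 0.00356), but did not pass the test from 12 to 24 h (adjusted p = 0.176) or from 48 to 72 h (adjusted p = 0.511). The step from 12 to 24 h, 0.16 ± 0.10, passed with scaling by library size only (0.31, adjusted p = 0.0122) and with upper quartile factors (0.28, adjusted p = 0.0323). The call at 12 h rests on the scaling, although it was kept with upper quartile factors. The call at 24 h was kept with scaling by library size only and with upper quartile factors. It was lost with factors taken from the authors' normalized values. At 12 h, with scaling by library size only the value was 0.13 (adjusted p = 0.259), and with factors taken from the authors' normalized values it was 0.03 (adjusted p = 0.894). With those factors the value at 24 h was 0.25 (adjusted p = 0.177) and the rise from 24 to 48 h was 0.25 (adjusted p = 0.187).

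SPARC, a collagen-binding matricellular protein that is abundant in fibroblasts, was close to the limit of detection. Group means were 0.29 to 0.467 CPM, and the lowest library (EGF 72 h) held 1 count and the highest (EGF 48 h) 19 counts. Its log2 fold change was 0.65 ± 0.52 at 12 h (95% interval -0.43 to 1.72, adjusted p = 0.275) and 0.00 ± 0.62 at 72 h (95% interval -1.29 to 1.29). A change of less than about that interval was not detectable at this depth.

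LOX, the copper-dependent lysyl oxidase that starts crosslinking of collagen and elastin, rose at all times. It was at 4.12, 3.62, 6.66 and 4.28 CPM in CTR and at 35.9, 32.7, 37.4 and 34.3 CPM at 12 h. It was at 17.2, 19.2, 21.7 and 22.1 CPM at 24 h, at 10.4, 8.90, 13.9 and 12.5 CPM at 48 h, and at 36.2, 35.7, 35.1 and 31.9 CPM at 72 h. The ranges of 12 and 72 h overlapped, and those of CTR, 48 h and 24 h lay below them in that order without overlap. Log2 fold changes against CTR were 2.90 ± 0.15, 2.09 ± 0.15, 1.29 ± 0.15 and 2.89 ± 0.15 (largest adjusted p = 2.24e-07), which is 7.48, 4.27, 2.44 and 7.41 times the CTR level. LOX fell by 0.81 ± 0.13 from 12 to 24 h (adjusted p = 1.71e-05) and again from 24 to 48 h (-0.81 ± 0.14, adjusted p = 3.58e-05), and rose by 1.60 ± 0.13 from 48 to 72 h (adjusted p = 2.64e-09).

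The related lysyl oxidase LOXL2, on chromosome 8 (23297189 to 23425328, minus strand), alternated between times. Its mean level was 8.08 ± 1.4 CPM in CTR, 11.5 ± 0.24 CPM at 12 h, 7.74 ± 0.55 CPM at 24 h, 11.9 ± 0.72 CPM at 48 h and 7.17 ± 0.69 CPM at 72 h. Libraries of 12 and 48 h, at 11.2 to 12.9 CPM, lay above all others, and those of 24 and 72 h, at 6.20 to 8.14 CPM, overlapped with CTR at 6.69 to 9.64 CPM. The log2 fold change against CTR was 0.51 ± 0.11 at 12 h (adjusted p = 0.00018) and 0.56 ± 0.11 at 48 h (adjusted p = 0.000148), and did not pass the test at 24 h (-0.06 ± 0.11, 95% interval -0.29 to 0.17) or 72 h (-0.16 ± 0.11, 95% interval -0.39 to 0.07). All 3 steps between neighboring times passed the test, at -0.57 ± 0.11, 0.62 ± 0.11 and -0.72 ± 0.11 (largest adjusted p = 0.00012). LOX and LOXL2 thus moved in opposite directions from 24 to 48 h and from 48 to 72 h. The call of LOXL2 at 12 h was lost with scaling by library size only (0.23, adjusted p = 0.0679).

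PLOD2, the lysyl hydroxylase that modifies collagen telopeptides for the more stable type of crosslink, declined slowly. Its mean level was 70.8 ± 10.8 CPM in CTR, 77.9 ± 3.9 CPM at 12 h, 64.2 ± 3.1 CPM at 24 h, 57.3 ± 5.0 CPM at 48 h and 51 ± 3.6 CPM at 72 h. Against CTR it was lower at 48 h (log2 fold change -0.31 ± 0.09, adjusted p = 0.00625), where the ranges overlapped, and at 72 h (-0.48 ± 0.09, adjusted p = 5.71e-05), where they did not. With only the 8 libraries of CTR and 48 h in the model, the adjusted p at 48 h was 0.0561. From 12 to 72 h PLOD2 fell by 0.61 ± 0.09 on the log2 scale (adjusted p = 1.82e-06), while the steps from 24 to 48 h and from 48 to 72 h did not pass the test. The latter passed with scaling by library size only (-0.26, adjusted p = 0.0221) and with upper quartile factors (-0.21, adjusted p = 0.0386), and so did the value at 24 h against CTR (-0.28, adjusted p = 0.00705, and -0.18, adjusted p = 0.0441), which was -0.14 ± 0.09 (adjusted p = 0.171) with TMM.

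COL4A2 fell at 12 h while its neighbor COL4A1 did not. The 2 genes encode the alpha-2 and alpha-1 chains that form the main collagen IV trimer, and they are transcribed away from each other on chromosome 13. Their RefSeq starts lie at 110307157 (COL4A1, minus strand) and 110307284 (COL4A2, plus strand), 126 bases apart. The sequence between them is shown since both genes start from it, on the strand of COL4A2, with a CCAAT box in capitals. It held 80.2% G and C and 1 match to GGGCGG.
COL4A1 to COL4A2 (chr13:110307158-110307283): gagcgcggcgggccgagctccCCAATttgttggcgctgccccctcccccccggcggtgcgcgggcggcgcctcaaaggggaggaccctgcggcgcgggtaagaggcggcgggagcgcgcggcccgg

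COL4A2 was at 7.74, 7.19, 5.72 and 6.30 CPM in CTR and at 1.11, 1.63, 1.38 and 1.24 CPM at 12 h, or 131 to 171 counts and 22 to 30 counts. It was at 5.09, 4.35, 4.36 and 4.00 CPM at 24 h, at 7.65, 6.41, 6.69 and 6.84 CPM at 48 h, and at 7.13, 5.63, 7.48 and 7.15 CPM at 72 h. The 12 h libraries were far below all others, those of 24 h lay between, and those of 48 and 72 h overlapped with CTR. Its log2 fold change against CTR was -2.33 ± 0.15 at 12 h (adjusted p = 1.65e-12), the largest fall among the 10 genes, and -0.60 ± 0.13 at 24 h (adjusted p = 0.000345). At 48 and 72 h it was 0.03 ± 0.12 for both, with 95% intervals of -0.22 to 0.29 and -0.23 to 0.28. COL4A2 rose by 1.73 ± 0.15 from 12 to 24 h (adjusted p = 3.49e-09) and by 0.63 ± 0.13 from 24 to 48 h (adjusted p = 0.000286).

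COL4A1 was at 0.603, 0.631, 0.555 and 0.577 CPM in CTR and at 1.01, 0.981, 0.497 and 0.861 CPM at 12 h. It was at 0.247, 0.509, 0.833 and 0.537 CPM at 24 h, at 0.277, 0.293, 0.266 and 0.634 CPM at 48 h, and at 0.308, 0.398, 0.447 and 0.319 CPM at 72 h. Its log2 fold change at 12 h was 0.50 ± 0.32 (95% interval -0.16 to 1.16, adjusted p = 0.168), an interval that does not include the fall of COL4A2. From 12 h it was lower at 48 h (-1.17 ± 0.34, adjusted p = 0.00396) and at 72 h (-1.19 ± 0.35, adjusted p = 0.00468), at 5 to 20 counts per library. Without replicate 4 of 48 h, which was the highest of its group, the log2 fold change at 48 h against CTR, -0.67 ± 0.35 in all libraries (adjusted p = 0.121), was -1.07 with an adjusted p of 0.0232. The CPM of COL4A2 was 10.3 to 12.8 times that of COL4A1 in the CTR libraries, 1.1 to 2.78 times at 12 h, 5.23 to 20.6 times at 24 h, 10.8 to 27.6 times at 48 h and 14.1 to 23.1 times at 72 h. Per kilobase of merged exon, the mean ratio was 8.68 in CTR and 1.33 at 12 h.

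**Figure D4:**
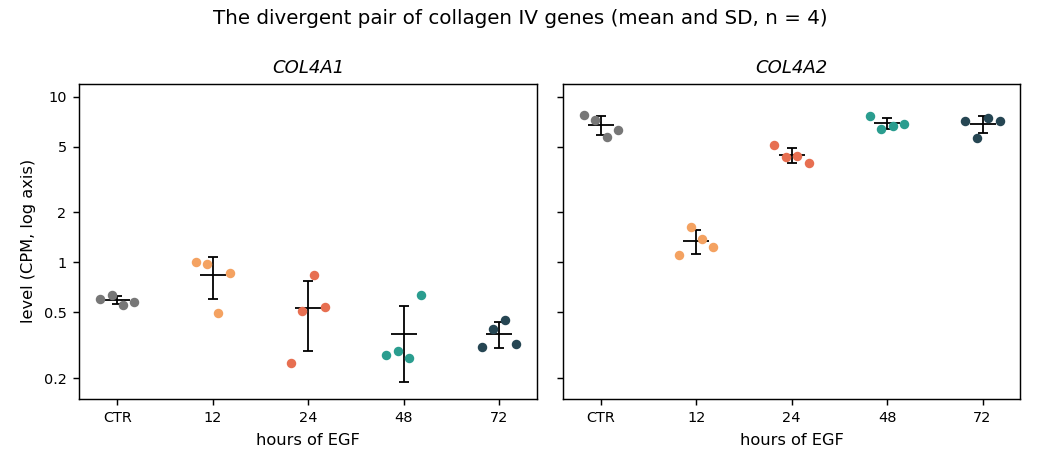
Levels of COL4A1 and COL4A2 in CPM on a log axis in each library, with the mean and SD of each group. At 12 h COL4A2 was at 1.11 to 1.63 CPM against 5.72 to 7.74 CPM in CTR, while the 12 h libraries of COL4A1, at 0.497 to 1.01 CPM, overlapped with CTR.

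Between neighboring times, 3 of the 10 genes rose and 4 fell from 12 to 24 h, against 27.9% and 25.9% of all genes, and 3 rose and 4 fell from 24 to 48 h, against 25.9% and 24.3%. From 48 to 72 h, 4 rose (FN1, TNC, THBS1 and LOX) and 1 fell (LOXL2), against 17.9% in each direction. The 4 that rose were also the genes that had fallen from 24 to 48 h. In either direction, 7 of 10 genes differed between 48 and 12 h (70.3% of all genes), 7 between 72 and 12 h (67.6%) and 5 between 72 and 24 h (40.2%).

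The levels were compared between genes per kilobase of merged exon. In CTR, PLOD2 was highest at 9.27 CPM per kb, followed by THBS1 at 2.25, LOXL2 at 1.41, TGFBI at 1.06, FN1 at 1.03 and LOX at 0.841 CPM per kb. COL4A2 was at 0.349, TNC at 0.143, SPARC at 0.0614 and COL4A1 at 0.0401 CPM per kb. At 12 h THBS1 was the highest of the 10 at 15.2 CPM per kb, and at 72 h FN1 was at 14.8 CPM per kb against 6.67 for PLOD2. TNC, which had the largest rise relative to CTR at 24 h, was at 2.47 CPM per kb there.

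Over all 20 libraries, the genes outside the group with the most similar log2 CPM were SPRR2A (r = 0.992) and SPRR2D (0.988) for FN1, KRT16 (0.989) and FSCN1 (0.988) for TNC, CRKL (0.979) and EZR (0.977) for THBS1, and CD274 (0.987) and SAMD9 (0.984) for LOX. For TGFBI they were TSPAN1 (0.962) and TNNT1 (0.951), for PLOD2 NRAS (0.974) and SP3 (0.972), for LOXL2 SIM1 (0.825) and GALNT2 (0.81), and for COL4A2 AL035661.1 and AC083841.1 (0.98 each). For the low-count genes they were WWC3 (0.812) and POLR1C (0.798) for COL4A1, and SUPT3H (0.593) and KDM5B (0.559) for SPARC. These coefficients are a description, since the libraries fall into 5 groups whose means all points of a group share.

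Of 24 other matricellular genes, 12 were tested, and 3 were higher and 6 lower at 12 h, 3 and 7 at 24 h, and 4 and 5 at both 48 and 72 h. For this and the following lists, the shares of all genes that were higher and lower were 32.9% and 36.5% at 12 h and 29.2% and 29.6% at 24 h. They were 24% and 21.8% at 48 h, and 30.6% and 31% at 72 h. SMOC1, a relative of SPARC, rose from 4.17 ± 0.47 CPM in CTR to 50.7 ± 2.3 CPM at 24 h and was at 18.4 ± 2.4 CPM at 48 h and 42.5 ± 3.1 CPM at 72 h. CCN2 rose from 6.54 ± 0.44 CPM in CTR to 33.6 ± 1.4 CPM at 12 h, and at 48 h did not pass the test against CTR (0.65 ± 0.27 on the log2 scale, adjusted p = 0.0597). EFEMP1 (fibulin-3) fell from 82.9 ± 1.8 CPM in CTR to 17.7 ± 0.58 CPM at 24 h, and FBLN5, a fibulin of elastic fibers, fell from 17.6 ± 2.2 CPM to 3.26 ± 0.43 CPM at 12 h.

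Of 23 other genes of collagen modification and crosslinking, 21 were tested, and 11, 10, 10 and 13 were higher and 3, 3, 2 and 3 lower at 12, 24, 48 and 72 h. TGM2, transglutaminase 2, which crosslinks matrix proteins including fibronectin, was at 2 to 6 counts in the CTR libraries and at 19.9 ± 1.6 CPM at 12 h, 14.3 ± 2.2 CPM at 24 h, 3.10 ± 0.25 CPM at 48 h and 11.6 ± 2.2 CPM at 72 h. PLOD3, a further lysyl hydroxylase, rose from 9.24 ± 1.6 CPM in CTR to 18.8 ± 1.8 CPM at 12 h and was at 21.8 ± 2.1 CPM at 24 h and 21.8 ± 2.7 CPM at 72 h. P4HA2, a prolyl 4-hydroxylase subunit, rose from 18.6 ± 1.3 CPM to 46.0 ± 2.6 CPM at 12 h, and COLGALT1, a collagen galactosyltransferase, from 164 ± 12 CPM to 422 ± 18 CPM. BMP1, which cleaves procollagen C-propeptides, rose from 9.63 ± 2.3 CPM to 24.6 ± 1.8 CPM. SERPINH1, the collagen chaperone HSP47, fell from 23.1 ± 3.6 CPM to 14 ± 1.4 CPM at 12 h. PXDN, the peroxidase that makes sulfilimine crosslinks in collagen IV, was at 67.4 ± 4.3 CPM in CTR and 152 ± 3.4 CPM at 12 h, when COL4A2 was lowest, and at 68.4 ± 1.3 CPM at 48 h.

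Of 10 other basement membrane genes, 8 were tested, and 4, 4, 4 and 5 were higher and 1, 2, 2 and 2 lower at the 4 times. HSPG2 (perlecan) rose from 4.07 ± 1.4 CPM in CTR to 22.8 ± 2.2 CPM at 12 h, and COL15A1 rose from 2.76 ± 0.40 CPM to 20.1 ± 2.0 CPM at 72 h. COL4A5, a further collagen IV chain, fell from 53.6 ± 12 CPM in CTR to 20.1 ± 1.6 CPM at 12 h, and was at 38.3 ± 6.4 CPM at 48 h. The other collagen IV chains of this list had means below 10 CPM. Each passed the test as higher at 72 h, and none as lower at any time. Of 15 other collagens, 7 were tested, with 5, 6, 4 and 5 higher and 1, 1, 1 and 0 lower. COL13A1, a transmembrane collagen, rose from 0.879 ± 0.32 CPM in CTR to 13.3 ± 0.98 CPM at 12 h, and COL1A1 rose from 6.18 ± 1.4 CPM to 13.9 ± 0.90 CPM at 72 h.

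Of 14 receptors of these matrix proteins, 12 were tested, and 10, 8, 6 and 8 were higher and 1, 3, 2 and 2 lower at 12, 24, 48 and 72 h. ITGA2 and ITGA5 had their lowest level after EGF at 48 h, as THBS1, TNC and LOX did. ITGA2 was at 18.5 ± 2.2 CPM in CTR, 508 ± 25 CPM at 12 h, 266 ± 71 CPM at 24 h, 81.4 ± 13 CPM at 48 h and 246 ± 33 CPM at 72 h. ITGA5, the fibronectin receptor chain, was at 2.16 ± 0.39, 23.5 ± 2.0, 14.4 ± 1.6, 7.32 ± 0.31 and 13 ± 0.58 CPM in the same order. ITGB1, their common beta chain, was at 156 ± 17 CPM in CTR and 371 ± 20 CPM at 12 h, and did not pass the test at 48 h (log2 fold change 0.17 ± 0.10, adjusted p = 0.155). ITGB5, a beta chain that pairs with alpha-v, rose from 23.2 ± 2.3 CPM in CTR to 54.8 ± 0.66 CPM at 12 h and was at 45.9 ± 2.7 CPM at 72 h. SDC1, the proteoglycan syndecan-1, fell from 99.8 ± 13 CPM in CTR to 50.6 ± 1.8 CPM at 24 h.

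**Figure D5:**
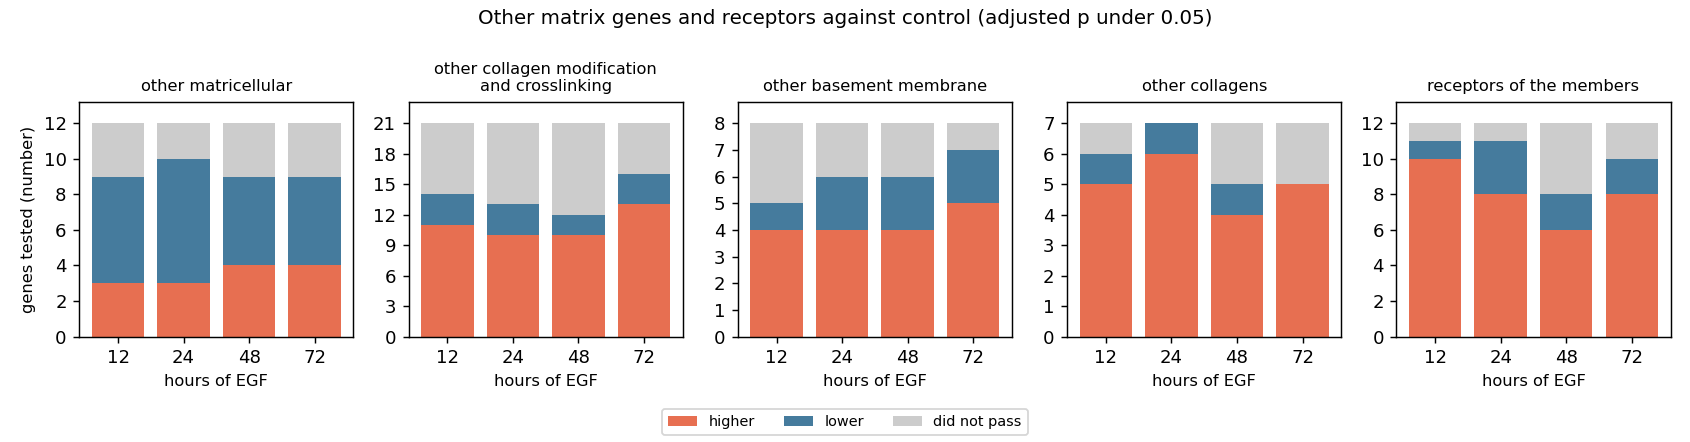
Number of tested genes (vertical axis) of the 5 lists of other matrix genes and receptors that were higher, lower or did not pass the test against CTR for each time of EGF. The receptors had the largest share of higher genes at 12 h, 10 of 12, against 32.9% of all genes tested. Of the 12 other matricellular genes, 3 were higher and 6 lower at 12 h, against 32.9% and 36.5% of all genes. At 48 h they were 4 and 5, against 24% and 21.8%.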

How the data were processed

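Gene expression was measured by RNA-seq in 20 libraries, prepared with the Lexogen Corall mRNA protocol and sequenced as single-end reads. The authors deposited estimated counts per gene, rounded to whole numbers and not normalized, for hg38 per the labels. The aligner, annotation, strand setting and use of molecular identifiers are not given in the sources used here, so counts may hold PCR duplicates. They also deposited normalized values, a score on the scale of counts, made in DESeq2, which divide the counts by factors that vary by gene and library in an undescribed way. These served here only as an alternative. Deposited fold changes and p-values were not used.

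The estimated counts were analyzed with edgeR 4.0.16 (limma 3.58.1, R 4.3.3). Genes were kept by filterByExpr (minimum count 10, minimum total 15), and libraries were scaled by TMM. A robust quasi-likelihood model, with 1 coefficient for each of the 5 groups and a prior count of 0.125, was fitted to the 20 libraries together, with Benjamini-Hochberg adjustment over 16522 genes and limits of 0.05, 1.5-fold and 0.667-fold. Intervals are 95% from the SE and the moderated degrees of freedom, and they cover the spread between libraries. The procedure was tested on simulated data in which few genes changed, at 12 h alone, unlike in these data. That test does not bear on the choice of scaling. Replicates differed beyond sampling noise in all 30 pairs within groups (chi-square 3.54 to 58.1 per degree of freedom), so none was counted as a duplicate.

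The members and gene lists were chosen with earlier results of these data known. All members were described, and 1 cell type marker is not reported here. Genes of other lists were named when they had a mean of at least 10 CPM in a group and passed the test and a fold limit at 2 or more times, and the 2 genes with the highest Pearson correlation of log2 CPM (prior count of 2, mean of at least 5 CPM) were named for each member. All 10 member identifiers matched GENCODE 29, from which positions and merged exon lengths were taken. Exons of other genes on the opposite strand cover 7.58% of exon bases of THBS1, 7.89% of SPARC, 3.12% of LOXL2 and 2.49% of LOX. The share was 1.34% for TNC and 0.492% for COL4A2. Reads there cannot be told apart if strand was not used. Exons of other genes on the same strand cover 2.1% of exon bases of LOXL2, where strand does not tell reads apart. Promoter sequences came from RefSeq (GRCh38.p14), matched by symbol, without the bases after the start. Alternatives were other scalings, filters and models, DESeq2 1.42.0 and factors per gene from the normalized values. Others were a block per replicate number, a test against a 1.5-fold change, and leaving out each library of the groups compared.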

Additional observations from a re-analysis of the deposited data

Results flagged for a closer look

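In 2 of 50 groups of 4 libraries, 1 library stood apart by Dixon's test, which chance does in about 1 in 20 groups. Both were replicate 4 of 48 h, with the highest level of its group for SPARC (0.861 CPM, 19 counts) and for COL4A1 (0.634 CPM, 14 counts). Replicate 1 of 24 h, the low library for THBS1, did not pass that test.

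The response to EGF differed between neighboring times in 19 of 30 tests, by edgeR's test of the difference itself. Of all genes tested, 27.9% rose and 25.9% fell from 12 to 24 h, and 25.9% rose and 24.3% fell from 24 to 48 h. From 48 to 72 h, 17.9% of all genes rose and 17.9% fell. From 12 to 24 h, the log2 differences were 0.70 for FN1, 0.43 for TNC and 1.73 for COL4A2, and -0.88 for THBS1, -0.81 for LOX, -0.57 for LOXL2 and -0.28 for PLOD2. From 24 to 48 h they were -0.50 for FN1, -2.04 for TNC, -1.43 for THBS1 and -0.81 for LOX, and 0.37 for TGFBI, 0.62 for LOXL2 and 0.63 for COL4A2. From 48 to 72 h they were 1.93 for FN1, 1.73 for TNC, 1.08 for THBS1 and 1.60 for LOX, and -0.72 for LOXL2. The fall of PLOD2 from 12 to 24 h did not pass the test with scaling by library size only (-0.14, adjusted p = 0.192), with upper quartile factors (-0.16, adjusted p = 0.0807) or with factors from the authors' normalized values (-0.16, adjusted p = 0.2).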

How the results depend on the processing

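FN1, TNC and LOX passed the test against CTR at all 4 times, and THBS1 at 12, 24 and 72 h, in the same direction under every alternative that gave a value. Factors per gene from the authors' normalized values gave none for TNC, SPARC and COL4A1 (under 20 counts in a library), and a filter of 10 counts in every library gave none for SPARC and COL4A1. Against a 1.5-fold change, members called fell from 7 to 1 and 3 for 24 and 72 against 12 h. They fell from 7 to 2 for 48 against 24 h, and from 5 to 1 and 3 for 72 against 24 and 48 h. That test has no all-gene share here. With factors from normalized values, 4 members were called for 24 against 12 h and 3 for 72 against 48 h, with 3 untested. All-gene calls, with fewer tested, fell from 8879 to 5837 and 5906 to 3209. With these factors THBS1 passed at 48 h against CTR (1.28, adjusted p = 0.019). The cause was not tested. With fewer genes tested, other collagens called were 1 in place of 6, 7, 5 and 5 at the 4 times with these factors, 4, 3 and 2 from 24 h on with a filter of 10 counts, and 3 at 12 h with only the 8 libraries compared. Other matricellular genes called fell from 10 to 6 at 24 h with these factors, and other basement membrane genes from 6 to 3 at 48 h and 7 to 4 at 72 h.

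Scaling by library size only shifted the log2 fold changes of all genes at 12 h against CTR by a median of -0.28, and upper quartile factors by -0.16, so that 30.2% and 37.2% of calls were higher, against 47.4% with TMM. For 24 against 12 h the shares were 68.6% and 66.1% against 51.9%, for 48 against 12 h 73% and 65.5% against 53.7%, and for 72 against 12 h 68.1% and 63% against 52.6%. With library size only, they were 36.3% against 49.6% for 24 h against CTR, 71.8% against 51.5% for 48 against 24 h, 33.8% against 50% for 72 against 48 h and 62.6% against 51.2% for 72 against 24 h. Values that changed sign had no call in either fit. With library size only these were COL4A2 at 72 h against CTR (-0.05), LOX for 72 against 12 h (0.195), PLOD2 at 12 h against CTR (-0.147) and SPARC for 48 against 12 h (0.196), and with upper quartile factors LOX (0.13), PLOD2 (-0.022) and SPARC (0.079) in the same comparisons. For COL4A1 and COL4A2 at 72 against 48 h and SPARC at 72 h against CTR, the values were 0.01, 0.018 and 0.008 by DESeq2 and 0.008, 0.014 and 0.019 with its size factors. A filter of 10 counts gave 0.01 for COL4A2 at 72 against 48 h and 0.077 for LOX at 72 against 12 h. Factors from the normalized values gave 0.014 for COL4A2 at 72 against 48 h, -0.123 for FN1 and -0.087 for LOXL2 at 48 against 12 h. Only the 8 libraries compared gave 0.002 for LOX at 72 against 12 h.

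Pairing by replicate number is unsettled. Deviations of 40 same-number pairs across groups correlated at -0.569 to 0.726, 15 over 0.1. Of 20 libraries, 8 correlated best with their own number. With a replicate block no member call changed (7 at 12 h against CTR). There, COL4A1 at 72 against 48 h (0.019) and SPARC at 72 h against CTR (0.007) changed sign uncalled.

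Leaving out 1 library ended no call of a member. Calls were gained for PLOD2 at 12 h without CTR replicate 3 (0.239, adjusted p = 0.00971) and at 24 h without CTR replicate 2 (-0.209, adjusted p = 0.0381), for COL4A1 from 12 to 24 h without replicate 3 of 12 h (-0.859, adjusted p = 0.0384) or replicate 3 of 24 h (-0.959, adjusted p = 0.0281), for FN1 from 12 to 48 h without replicate 2 of 48 h (0.252, adjusted p = 0.0409), and for TNC at 72 against 24 h without replicate 1 of 24 h (-0.392, adjusted p = 0.0247) or of 72 h (-0.369, adjusted p = 0.0482). Uncalled values that changed sign ranged, for SPARC, from -0.017 to 0.707 at 48 h and -0.348 to 0.315 at 72 h against CTR, -0.454 to 0.155 for 24 against 12 h, -0.662 to 0.108 for 48 against 12 h, -0.472 to 0.359 for 48 against 24 h and -0.899 to 0.015 for 72 against 48 h. For COL4A1 they ranged from -0.457 to 0.066 at 24 h against CTR and -0.158 to 0.386 for 72 against 48 h, for COL4A2 from -0.039 to 0.105 at 48 h and -0.045 to 0.108 at 72 h against CTR and -0.051 to 0.075 for 72 against 48 h, for LOX from -0.047 to 0.023 for 72 against 12 h, and for LOXL2 from -0.141 to 0.036 at 24 h against CTR. SPARC and COL4A1 had SEs of 0.32 to 0.62 against CTR, so depth limits them.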

Other observations

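The authors' normalized values varied more between CTR libraries than CPM did for several members. For FN1 in CTR they were 519, 220, 190 and 244 in replicates 1 to 4, where the counts were 418, 386, 388 and 363, and the coefficient of variation was 51.9% against 12.3% in CPM. For THBS1 in CTR they were 139, 560, 133 and 392 at counts of 389, 536, 460 and 432, with a coefficient of variation of 68% against 6.76%. For TNC in CTR they were 22, 56, 6 and 49 at counts of 35, 43, 25 and 18 (70.2% against 34.9%). At 72 h the coefficient of variation of TNC was 4.53% on the normalized values and 9.62% in CPM, and that of FN1 was 11.6% and 8.05%. For COL4A2 at 12 h the normalized values were 11 to 27, at counts of 22 to 30, against 120 to 183 in CTR.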
